A study of Arabidopsis thaliana with 12 samples.

Results

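The dark-inducible (DIN) genes and the dormancy markers are a set of 9 Arabidopsis loci, and all 9 were listed as differentially expressed genes (DEGs) in at least 1 comparison of light regimes, among 6520 loci listed in all. They were picked by locus identifier, but they and the gene lists set beside them below were chosen with earlier results of these data known. Their counts against a background therefore describe these genes and do not test them as an independent set. DIN1 is AT4G35770, DIN10 is AT5G20250, DIN6 (also ASN1) is AT3G47340, DIN2 (BGLU30) is AT3G60140, DIN9 (PMI2) is AT1G67070 and DIN11 is AT3G49620. AT3G15450 is a SEN5-like gene, and DRM1 (DYL1, AT1G28330) and DRM2 (AT2G33830) are the dormancy-associated pair. The RNA came from Arabidopsis thaliana leaves of Col-0, which is the reference accession Columbia, raised from seed of a single parent and acclimated for 22 days, per the labels, to 1 of 4 light regimes with 3 libraries each. Square light of high (SQH) or low (SQL) intensity was held at 1 level through the day, whereas fluctuating light of high (FLH) or low (FLL) intensity followed a natural record of changing light. The daily amount of light was matched between SQH and FLH and between SQL and FLL, but the light at the moment of harvest was not, and it cannot be told apart from the pattern here. The labels give 22 °C and watered plants for every regime, whereas the methods give a cooler night. The replicates were independent per the methods, which do not say how many plants each held.

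The DIN genes were first isolated as transcripts that accumulate in leaves kept in the dark, and most of them also accumulate when sugar runs short and fall when sugar is supplied. The energy-sensing kinase SnRK1 and bZIP transcription factors of the C and S1 groups are known to act on several of them, DIN6 among them. The proteins have little in common. DIN6 makes asparagine, a nitrogen-rich transport form, from aspartate and glutamine. DIN10 is related to raffinose synthases and alkaline alpha-galactosidases, DIN2 is a beta-glucosidase, DIN9 a phosphomannose isomerase, DIN11 a 2-oxoglutarate-dependent dioxygenase, and DIN1 (also SEN1) a rhodanese-like protein of the chloroplast. DRM1 and DRM2 belong to the dormancy- and auxin-associated family, whose transcripts mark buds that have stopped growing.

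The stretch of 300 bases before the annotated start was read for all 9 genes in TAIR10.1, the RefSeq release of the assembly. Those of 4 genes are printed because they belong to the genes with the strongest calls (DIN1, DRM2) or hold the motifs searched (DIN6, DIN11, DRM2). Capitals mark a G-box (CACGTG, bound by bZIP and bHLH factors) or a TATCCA box, an element known from sugar-starved rice as a site of MYB factors. Each runs 5′ to 3′ toward the gene.

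DIN1 upstream, chr4:16944578-16944877, plus strand: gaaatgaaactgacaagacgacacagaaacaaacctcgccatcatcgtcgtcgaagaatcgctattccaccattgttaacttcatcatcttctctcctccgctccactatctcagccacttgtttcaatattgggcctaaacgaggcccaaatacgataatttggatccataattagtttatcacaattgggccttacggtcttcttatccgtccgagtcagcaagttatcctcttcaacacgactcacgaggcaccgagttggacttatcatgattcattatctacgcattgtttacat

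DIN6 upstream, chr3:17441432-17441731, minus strand: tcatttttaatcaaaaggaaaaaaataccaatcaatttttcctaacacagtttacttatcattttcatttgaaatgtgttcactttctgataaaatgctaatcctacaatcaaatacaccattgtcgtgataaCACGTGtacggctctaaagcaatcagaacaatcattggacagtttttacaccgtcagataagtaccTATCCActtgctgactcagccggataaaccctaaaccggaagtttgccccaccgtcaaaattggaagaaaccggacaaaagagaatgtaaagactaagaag

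DIN11 upstream, chr3:18393447-18393746, plus strand: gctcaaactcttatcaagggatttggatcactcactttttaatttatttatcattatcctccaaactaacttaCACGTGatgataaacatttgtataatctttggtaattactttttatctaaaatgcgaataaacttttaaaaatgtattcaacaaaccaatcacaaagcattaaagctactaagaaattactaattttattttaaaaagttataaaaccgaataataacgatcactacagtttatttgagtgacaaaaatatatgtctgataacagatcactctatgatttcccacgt

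DRM2 upstream, chr2:14310609-14310908, minus strand: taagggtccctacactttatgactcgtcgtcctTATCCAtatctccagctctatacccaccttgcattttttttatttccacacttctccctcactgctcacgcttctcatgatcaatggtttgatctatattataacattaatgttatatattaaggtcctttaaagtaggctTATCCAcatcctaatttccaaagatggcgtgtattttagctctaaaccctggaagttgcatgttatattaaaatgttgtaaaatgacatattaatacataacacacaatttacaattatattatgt

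The G-box lay 167 bases before the start of DIN6 and 227 before that of DIN11, and was found in 2 of 9 genes against 7.09% of the 27443 protein-coding genes searched in the same window. TATCCA lay 101 bases before DIN6 and 267 and 126 bases before DRM2, again 2 of 9 genes against 16.2%. The I-box core GATAA, a short element of light-regulated promoters, was in 7 of 9 genes (not in DIN10 or DIN2) and in 61.4% of all genes, and both TATCCA boxes of DRM2 overlap it on the other strand. The evening element AAAATATCT was in none of the 9 and in 2.79% of all genes. Both strands were searched, matches are exact letters only, and nothing about the factors follows from them. The genes themselves lie on 5 chromosomes, DIN1 at chr4:16944878-16946266, DIN6 at chr3:17437840-17441431, DIN11 at chr3:18393747-18397050 and DRM2 at chr2:14308754-14310608. The annotated ends of DIN10, DIN6 and AT3G15450 overlap a gene on the other strand by 82, 11 and 41 bases, and whether the counting used strand is not given in the sources used here.

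The deposited data are 4 tables, 1 per comparison, that hold only the DEGs (adjusted p up to 0.05 and a log2 fold change, log2FC, of 0.5 or more in size, from the authors' DESeq2 Wald test with Benjamini-Hochberg adjustment). A gene absent from a table was therefore not called there, which does not show that it was equal. All adjusted p below are those deposited values unless another test is named. Each row gives a mean normalised count over the 12 libraries, a log2FC and its standard error (SE), and values of single libraries and their depth were not analysed here. A positive log2FC was read as higher expression in the regime named first. This sign was settled from the SEs, since the 2 readings imply different count noise. For DIN1 the replicate dispersion implied by its 3 comparisons differed by 0.106% under this reading and by 7.68% under the other, and for DIN10 by 0.0236% and 1.64%. Of the 211 genes in at least 3 tables, 209 had the smaller difference under this reading. The study's text on MCCA, a gene described below, and the labels of its volcano plots read the sign the other way, and under that sign every direction given here would turn. The study's passage on transposable elements instead takes an increase in SQH vs FLH as more transcription in SQH, which is the reading used here. The study's alignment statistics set every FLL library, and 1 of SQL, apart from the others, so that in comparisons with FLL this split and the regime cannot be told apart.

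At high intensity, 7 of 9 members were higher in fluctuating than in square light, with folds from 157 to 2740, 1 was lower and 1 was not listed. The background in that comparison was 12.1% of 20865 genes tested for a higher level in FLH and 10.1% for a higher level in SQH. In whole leaves a change in how many cells of a type were present and a change in RNA per cell cannot be told apart. DRM2 had the largest absolute log2FC of the 4633 loci listed (-11.42, SE 1.13, 2740-fold, adjusted p 8.39e-21), and DIN1 the next (-10.25, SE 0.91, 1221-fold, adjusted p 2.61e-25). DIN1 also had the smallest p of the table, and DRM2 ranked 9 by p. AT3G15450, whose protein carries the motifs of an aluminium-induced family, followed at -8.64 (SE 0.91, 399-fold), and DIN6 at -8.63 (SE 0.95, 397-fold). DIN10 stood at -8.58 (SE 0.89, 383-fold), DRM1 at -8.23 (SE 1.11, 299-fold) and DIN11 at -7.30 (SE 1.25, 157-fold). By absolute log2FC these 5 ranked 11, 12, 14, 18 and 39, so all 7 lay among the first 39 loci of the table. Their 95% intervals overlapped widely, from -13.63 to -9.21 for DRM2 and from -9.74 to -4.85 for DIN11, and the order among them was not tested. The median over the 8 members listed was -8.61, against -0.87 over all loci listed.

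DIN9, which interconverts the phosphates of fructose and mannose, went the opposite way. It was 3.02-fold higher in SQH than in FLH (log2FC 1.60, SE 0.53, adjusted p 0.0174) and was listed in no other comparison. Its interval, from 0.55 to 2.64, did not overlap that of any other member in this comparison. DIN2 was not listed at high intensity.

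**Figure D1:**
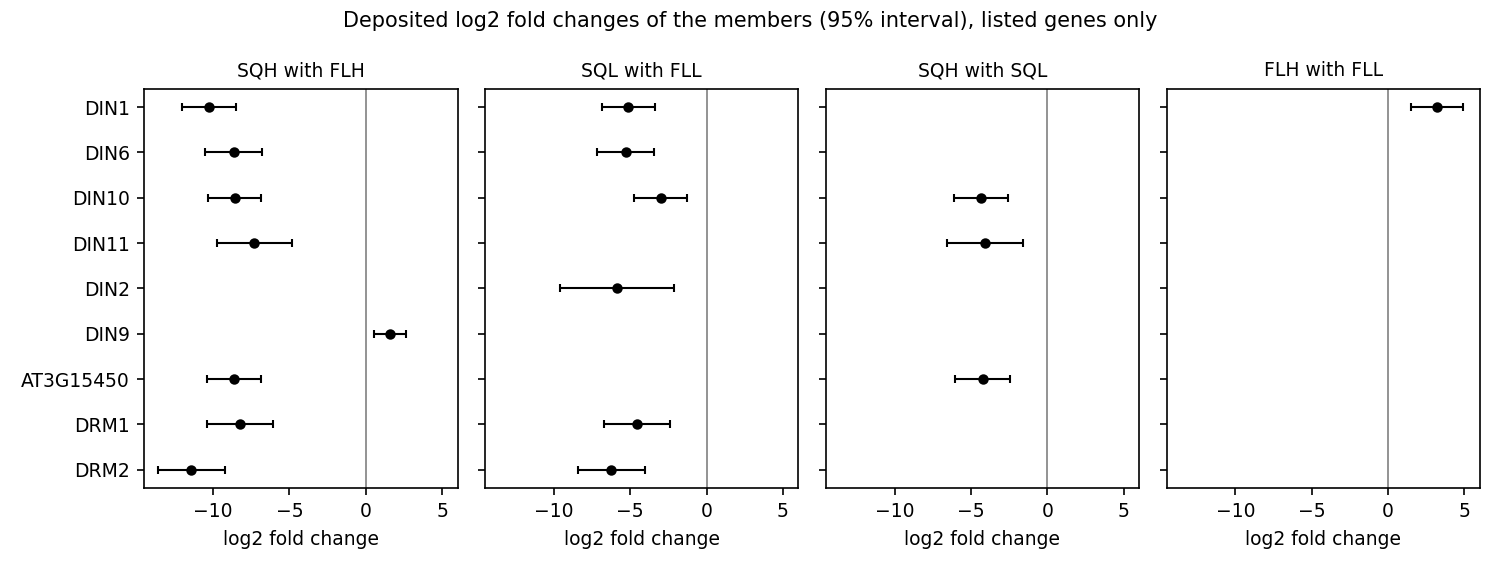
Deposited log2FC of each member (rows) in the 4 comparisons (panels), with the 95% interval from the SE. Values left of 0 are higher in the regime named second and an empty row was not listed. In all, 7 members lie left of -7 in SQH with FLH, and 6 lie between -6.23 and -3.00 in SQL with FLL.

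At low intensity, 6 of 9 members were listed and all 6 were higher in FLL than in SQL, where the background was 4.21% of genes for a higher level in FLL and 3.99% for a higher level in SQL. The folds ran from 7.99 to 74.9. DRM2 again had the largest value (log2FC -6.23, SE 1.11, 74.9-fold, adjusted p 1.56e-05). DIN2 came next at -5.88 (SE 1.90, 59.1-fold, adjusted p 0.0332), with the widest interval of all members (-9.61 to -2.16). This was the only comparison that listed DIN2. DIN6 stood at -5.30 (SE 0.95, 39.4-fold), DIN1 at -5.13 (SE 0.89, 34.9-fold, adjusted p 7.92e-06), DRM1 at -4.56 (SE 1.10, 23.5-fold) and DIN10 at -3.00 (SE 0.89, 7.99-fold, adjusted p 0.0197). Both dormancy genes and 4 of the 6 DIN genes were thus called in the direction of fluctuating light at this intensity. AT3G15450, DIN9 and DIN11 were not listed. The member median was -5.21, against -0.66 over all loci listed.

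The same contrast of pattern was then compared between intensities, using SQH with FLH and SQL with FLL, which share no library. In all, 5 members were listed in both, and in all 5 the difference between square and fluctuating light was the larger at high intensity. The difference of the log2FC was put to a two-sided z test, Benjamini-Hochberg adjusted over the 641 genes that both tables list. For DIN10 it was -5.58 (SE 1.26, adjusted p 6.80e-05), so the fold at high intensity was 47.9 times that at low intensity. For DRM2 it was -5.19 (SE 1.58, adjusted p 0.00604, 36.6 times) and for DIN1 -5.13 (SE 1.27, adjusted p 0.000358, 35.0 times). DIN6 (-3.33, SE 1.34, adjusted p 0.0697) and DRM1 (-3.67, SE 1.56, adjusted p 0.0967) did not pass, with unadjusted p of 0.0132 and 0.0188. The call of DRM2 was lost with SEs multiplied by 1.5 (adjusted p 0.169) and with Bonferroni adjustment (p 0.653), while those of DIN1 and DIN10 held under both. Thus 3 of 5 members passed, where 18.3% of the 641 genes did. Most of the genes that passed changed direction between the intensities, however. They were bound to pass, since both of their changes were already called, so the 18.3% is no reference for the members. Their presence also lowers the adjusted p of the other genes. Among the 545 that kept their direction the share was 3.85%, or 21 genes, including the 3 members. Adjustment over the 545 alone was not run. Of the 545 genes, 57.4% had the larger change at high intensity. Every gene here had to be called in both tables, and those with a small change at 1 intensity were never tested.

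**Figure D2:**
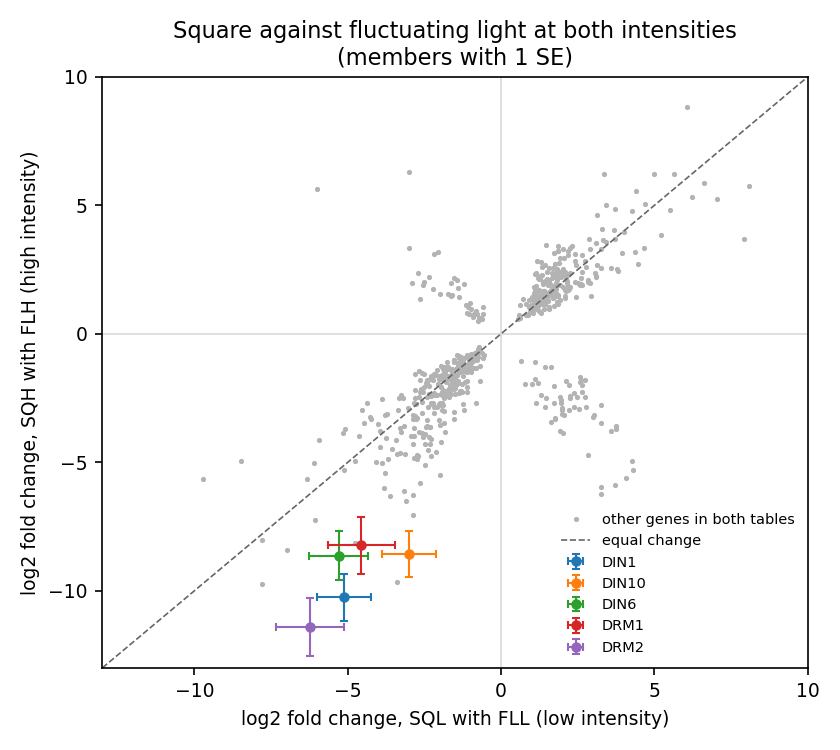
Log2FC of SQL with FLL (x axis) against SQH with FLH (y axis) for the 641 genes listed in both, with 1 SE for the 5 members. The dashed line marks equal change, and all 5 members lie below it, at -8.23 or less on the y axis and between -6.23 and -3.00 on the x axis.

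Intensity alone gave fewer calls. Under square light 3 of 9 members were listed, all higher at low intensity, where the background was 1.55% of 21349 genes for a higher level in SQL and 1.57% for a higher level in SQH. DIN10 was 20.3-fold higher in SQL than in SQH (log2FC -4.35, SE 0.89, adjusted p 0.000253692). AT3G15450 was 18.8-fold higher (-4.23, SE 0.91, adjusted p 0.000593041) and DIN11 17.0-fold higher (-4.08, SE 1.26, adjusted p 0.0407). Under fluctuating light the direction was the other way in the only member listed, with a background of 5.38% of genes for a higher level in FLH and 4.51% for a higher level in FLL. DIN1 was 9.19-fold higher in FLH than in FLL (log2FC 3.20, SE 0.88, adjusted p 0.00747). No member was listed in both intensity comparisons. The difference between the intensity effects under square and fluctuating light is the same quantity as the interaction tested above.

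For 6 members the level in each regime could be worked out from the deposited values, as mean normalised counts that are not corrected for gene length and so are compared only within a gene. DIN1 and DIN10, listed in 3 tables each, have levels fixed by 3 log2FC and the overall mean. DIN1 averaged 16.6 in SQH, 63.1 in SQL, 2201 in FLL and 20219 in FLH, each with an SE near 0.6 on the log2 scale (0.66 in SQH, 0.62 in FLH). DIN10 averaged 70.5, 1434, 11447 and 26992 in the same order. Both genes had their lowest level in SQH and their highest in FLH, and 89.9% of the DIN1 sum over the regimes, against 67.6% of that of DIN10, came from FLH.

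DIN6, DIN11, DRM1 and DRM2 are in 2 tables each, and their levels use the SEs as well. DIN6 came to 75.5 in SQH, 175 in SQL, 6886 in FLL and 29974 in FLH. DRM1 came to 37.7, 113, 2657 and 11272, and DRM2 to 15.9, 142, 10668 and 43633. The dormancy genes and DIN6 had nearly the same split, with 80.1 to 80.8% of the sum in FLH and 18.6 to 19.6% in FLL. DIN11 came to 1.99 in SQH, 33.8 in SQL, 40.7 in FLL and 313 in FLH, with the largest square-light share of the 6 (9.18%). Its SQH value is under 3 counts, so its folds against SQH rest on very few reads. In genes where another table allowed a check, the largest error of such levels had a median of 0.0166 on the log2 scale (106 genes, tables as for DIN6, DRM1 and DRM2) or 0.0623 (65 genes, tables as for DIN11). The check was weaker for the tables of DIN11, where 43 of the 65 genes were within 0.1, the 90th percentile was 0.173 and 1 gene had no solution. Genes with under 10% of their sum in FLL were left out of it, and DIN11 had 10.4%. The FLL level of DIN11 is what remains of its sum after the other levels, so their error passes into it. With SQH at 2.22 in place of 1.99, nothing would remain for FLL.

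**Figure D3:**
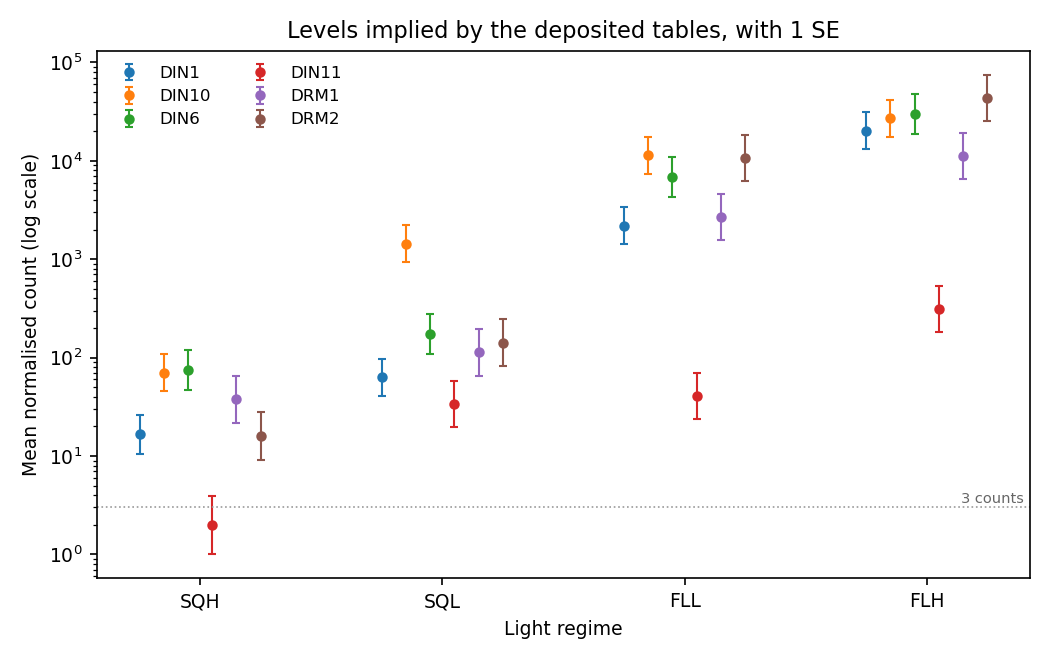
Mean normalised count (log axis) of the 6 members with levels in the 4 regimes, with 1 SE, the dotted line marking 3 counts. Every gene is lowest in SQH and highest in FLH, from 16.6 to 20219 in DIN1 and from 1.99 to 313 in DIN11, and heights are comparable within a gene only.

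By the levels worked out, all 6 members had the order SQH, SQL, FLL, FLH from low to high. In DIN11 the place of FLL (40.7, against 33.8 in SQL) is uncertain, since that level is a remainder. Of the 211 genes with levels from at least 3 tables, DIN1 and DIN10 included, 16 (7.58%) had it. Levels could be worked out only for members called in 2 or 3 tables, and those calls already fix part of this order, such as SQH below FLH. The neighbours in that order did not all differ beyond their error. SQL and FLL differed in 5 of the 6 by the deposited test, whereas for DIN11 the recovered log2FC was -0.27 (SE 1.12, interval -2.46 to 1.92, unadjusted p 0.81). SQH and SQL differed by the deposited test only in DIN10 and DIN11. For the others the recovered log2FC was -1.93 in DIN1 (SE 0.91, unadjusted p 0.0346), -1.21 in DIN6 (SE 0.95, p 0.204), -1.58 in DRM1 (SE 1.11, p 0.153) and -3.16 in DRM2 (SE 1.13, p 0.0051), by two-sided z tests. The largest p listed in that table was 0.00155, which none of them reached. FLL and FLH differed by the deposited test only in DIN1. The recovered log2FC of FLH with FLL was 1.24 in DIN10 (SE 0.89, p 0.162), 2.12 in DIN6 (SE 0.95, p 0.025), 2.94 in DIN11 (SE 1.11, p 0.0079), 2.09 in DRM1 (SE 1.10, p 0.0577) and 2.03 in DRM2 (SE 1.11, p 0.0663), against a largest listed p of 0.00494. All were positive, and none was past the threshold. The interaction of DIN11 recovered in the same way was -7.03 (SE 1.68, unadjusted p 2.72e-05). It rests on an SQH level of 1.99 and on an FLL level that is a remainder. The SEs of the DIN11 contrasts with FLL leave out the error of solving its levels, so their p may be too small.

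For the remaining 3 genes only limits can be given. AT3G15450 had a mean normalised count of 12686 over the 12 libraries, which with its 2 log2FC puts its level at no more than 121 in SQH, 2280 in SQL and 48341 in FLH. DIN2, at a mean of 600.4, was at most 40.0 in SQL and 2362 in FLL, and DIN9, at a mean of 403, at most 1212 in SQH and 401 in FLH.

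Replicates of these genes varied widely. The SEs correspond to a coefficient of variation between libraries of 75.0 to 80.8% for DIN1, DIN10, DIN6 and AT3G15450, and 93.5 to 95.6% for DRM1 and DRM2. DIN11 stood at 106 to 107%, DIN2 at 161% and DIN9 at 45.2%. Over listed genes with a mean of at least 1000 the median was 36.2 to 42.1%, depending on the comparison. All 9 members lay above that range, though DIN2, DIN9 and DIN11 had means under 1000 and so were not in the set behind it.

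Close relatives of the members were counted in the same way. The 20 relatives were other rhodaneses, raffinose synthases, asparagine synthetases and beta-glucosidases, PMI1, the dioxygenase beside DIN11 and family members of AT3G15450 and DRM1. Of these 20, 5 were listed anywhere and 4 in SQH with FLH. All 4 were higher in FLH, as were 12.1% of all genes tested, and the count of 4 of 20 is not read as a difference from that background. AT4G27450, of the family of AT3G15450, was the closest in size (log2FC -7.04, SE 0.83), and was also higher in FLL than in SQL (-2.88, SE 0.83) and in SQL than in SQH (-2.87, SE 0.84). AT1G56220, of the DRM family, stood at -3.45, SIP2, a raffinose-hydrolysing galactosidase, at -3.17 and AILP1 at -2.98. SIP2 was also listed in both intensity comparisons (-1.86 in SQH with SQL and 1.89 in FLH with FLL). The rhodanese STR18 was slightly lower in FLH than in FLL (-0.90). ASN2, ASN3, BGLU28, BGLU29 and PMI1 were not listed.

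Genes known to respond to sugar shortage were also mostly listed. Of 19 such genes 18 were in some table and 17 in SQH with FLH, 16 of them higher in FLH (against 12.1% of all genes tested), with a median of -3.85 against -0.87 over all loci listed and -8.61 for the members. They included the F-box gene KMD1 (-6.43), the zinc-finger gene AT5G22920 (-6.75), the xylosidase BXL1 (-6.49) and TPS8, of the trehalose phosphate synthase family (-4.24). The exception was BAM9, a beta-amylase-like gene without known activity, at 2.49 in SQH with FLH and -5.20 in FLH with FLL. At low intensity 4 of 19 (21.1%) were listed, all higher in FLL against 4.21% of all genes, and all 4 encode enzymes, or subunits of enzymes, that break down branched-chain amino acids or proline. These were BCAT2 (-3.83), ERD5 (-2.58), MCCA (-2.48) and DIN4 (-2.31). DIN3, MCCB and IVD, also of branched-chain amino acid breakdown and in the same list, were listed only in SQH with FLH. Under square light 7 were listed, 6 of them higher in SQL against 1.55% of all genes, and the other, threonine aldolase THA1, at 2.77. Of 9 genes known to be raised by sugar, 3 (33.3%) were listed in SQH with FLH and all 3 were higher in SQH, against 10.1% of all genes. They were the anthocyanin regulator PAP1 (2.92), TPS5 (1.92) and the starch synthesis subunit APL3 (1.46). At low intensity LDOX (7.96, SE 1.99) and APL3 (1.85) were higher in SQL than in FLL. GPT2, a glucose phosphate translocator of the plastid, was listed in the intensity comparisons, higher in SQH than in SQL (2.97, SE 0.75) and higher in FLH than in FLL (4.49, SE 0.75, adjusted p 5.68e-07). In FLH with FLL it thus had the same direction as DIN1, whereas in SQH with SQL its direction was opposite to that of DIN10.

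Markers of the tissue and of leaf age were read in the same tables. The leaf label was checked against the mesophyll genes RBCS2B, RCA and CA1, whose mean normalised counts were 134805, 503060 and 210375. No root hair marker (0 of 2) was listed, but an unlisted gene was only not called, so this does not show whether they were expressed. These 3 mesophyll genes, of 5 in the list (60.0%), were lower in FLH than in SQH (1.84, 1.63 and 1.84), against 10.1% of all genes. RCA was also lower in FLH than in FLL (-1.83). Since DIN1 is also named SEN1, 12 markers of senescing leaves were counted beside the members, and 4 (33.3%) were listed in SQH with FLH, all higher in FLH against 12.1% of all genes. These were the NAC factor ORE1 (-3.95), SAG21 (-3.55), WRKY53 (-3.49) and the chlorophyll b reductase NYC1 (-1.40). The cysteine protease SAG12, and SAG13, NYE1, PAO, PPH and NAP, were in no table, and none of the 12 was listed in SQL with FLL, where 6 members were. In FLH with FLL, 4 (33.3%) were higher in FLH, against 5.38% of all genes, among them SAG29 (5.91, SE 2.04). The summed level of either list in each regime was not analysed here, and their part in the result was not tested.

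**Figure D4:**
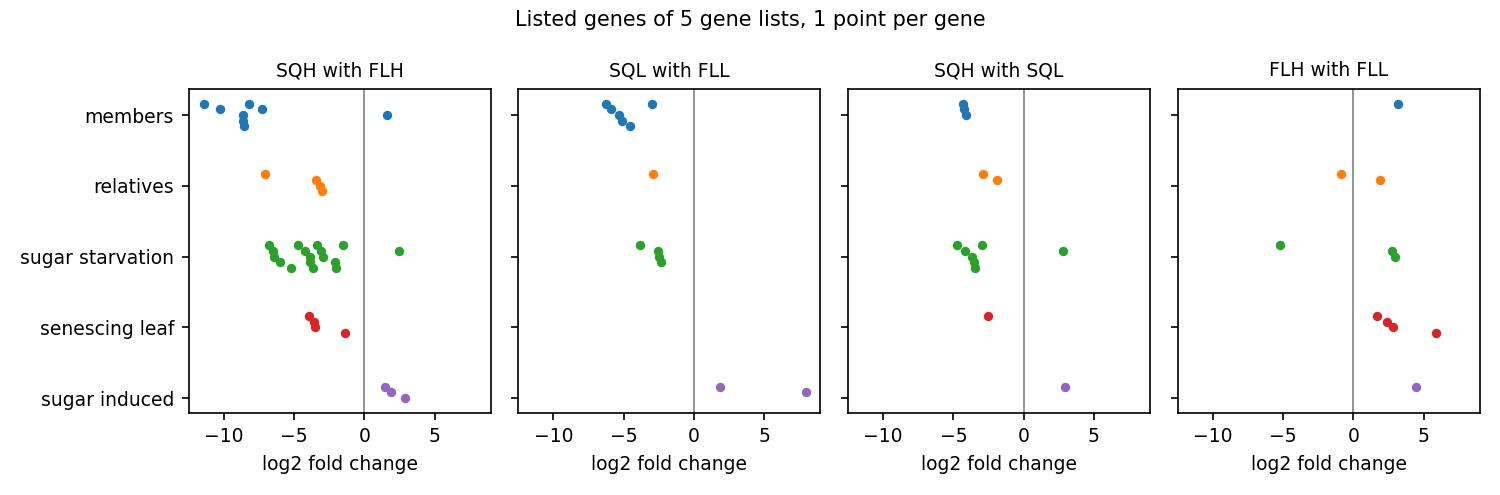
Deposited log2FC of the listed genes of the members and 4 gene lists (rows), 1 point per gene, in the 4 comparisons (panels). In SQH with FLH the members reach -11.42, the sugar starvation genes -6.75 and the senescing leaf markers -3.95, while the 3 sugar induced genes lie right of 0.

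The genes whose levels over the 4 regimes lay nearest to the mean profile of DIN1 and DIN10 were sought among the 211 genes with levels from at least 3 tables, as a Euclidean distance of centred log2 levels. MEE14 (AT2G15890) was nearest at 0.93, with levels of 28.9 in SQH, 602 in SQL, 6321 in FLL and 23430 in FLH. AT4G27450, the relative named above, followed at 1.91, and then AT1G69890 (2.89), AT3G59350 (2.98) and COR27, a cold- and clock-regulated gene (3.08). For scale, DIN1 and DIN10 lay 2.91 from each other and the median over all genes was 6.84. Their mean profile lies midway between DIN1 and DIN10, so of the named genes only MEE14 was nearer to it than these members. COR27, unlike DIN1 and DIN10, had a lower level in SQL (2.67) than in SQH (5.33), both at few counts. The likeness was measured over 4 regimes only, in values from the same 12 libraries.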

How the data were processed

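Polyadenylated leaf RNA was sequenced in 12 libraries, 3 per regime, and groups were taken from the library titles. Per the submitters' processing notes the authors used HISAT2, SAMtools, featureCounts and DESeq2 with the TAIR10 genome, and versions are not given in the sources used here. The deposited tables hold a signal (the mean over the 12 libraries of counts divided by size factors), a log2 fold change and its SE on the log2 scale, the Wald score, the p-value and the adjusted p-value of the authors' DESeq2 comparisons, for called genes only. These columns are the authors' own comparisons and are the only values used. Counts of single libraries were not analysed here, so no model was refitted, and depth per library, which the study's statistics describe, was not used here.

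How many genes entered each test was worked out by dividing adjusted p by p. The number kept was the one that made the most of the implied ranks of p whole. That share ran from 55.9% in SQL with FLL to 77.0% in SQH with FLH, so the numbers of genes tested are estimates. A missing log2 fold change was summed around the loop of regimes, which in the 39 genes present in all 4 tables gave back the deposited value within 1e-09. Levels were solved from the fold changes and the mean, or, for genes in 2 tables, also from the SEs under a shared dispersion, where the squared SEs differed by at least 0.2%. That minimum left out AT3G15450 and was set after its values were seen. The interaction was a two-sided z test with Benjamini-Hochberg adjustment. Methods were tested on simulated data. The simulated dispersions ended below those of DIN6, DIN11, DRM1 and DRM2, and no filter for called genes was applied. That test therefore does not cover these genes or the interaction test as run here. Stricter thresholds and inflated SEs were tried as alternatives.

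All 9 members are named. Of each list, the rule named the genes listed in both pattern comparisons or with the largest change in a comparison, and the 5 nearest genes. The other list genes named with values were chosen after their values were seen. The members and lists were chosen with earlier results of these data known. All 76 list loci were found in TAIR10.1, from which coordinates and sequences were read. Python 3.11.15, numpy 2.4.6, scipy 1.17.1, pandas 2.3.3 and matplotlib 3.10.9 were used.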

Additional observations from a re-analysis of the deposited data

Results flagged for a closer look

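The effect of light pattern differed between high and low intensity in 3 members. This is by the two-sided z test of the difference with Benjamini-Hochberg adjustment over 641 genes. Those include genes called in opposite directions at the 2 intensities, which were bound to pass and which lower the adjusted p of the others. The log2FC of SQH with FLH minus that of SQL with FLL was -5.13 for DIN1 (interval -7.62 to -2.64), -5.58 for DIN10 (-8.05 to -3.12) and -5.19 for DRM2 (-8.29 to -2.09). The call of DRM2 did not hold with Bonferroni adjustment (p 0.653) or with SEs multiplied by 1.5 (adjusted p 0.169). In each gene the value at high intensity (-10.25, -8.58 and -11.42) was larger in size than that at low intensity (-5.13, -3.00 and -6.23). The comparison at low intensity includes the FLL libraries, which stand apart in the study's alignment statistics, and the part of that split in the difference cannot be told apart from the regime.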

How the results depend on the processing

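Every count of called members stayed within 1.5 times its value under the alternatives run. These alternatives kept the deposited log2FC and so could not change a direction. With the adjusted p held to 0.01 the counts were 2 in SQH with SQL (3 at 0.05), 7 in SQH with FLH (8), 4 in SQL with FLL (6) and 1 in FLH with FLL (1). DIN11, DIN9, DIN2 and DIN10 were the genes lost, each in 1 comparison. A minimum mean of 100 removed DIN11 from both of its comparisons. The interaction count of 3 became 2 with Bonferroni adjustment and 2 with SEs multiplied by 1.5, DRM2 being lost in both. Solving DIN1 and DIN10 from 2 tables, an alternative chosen after seeing the data, moved no level by more than 5.34%.

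No paired analysis was possible because the tables used hold no values per library, so the fit with the replicate block and the fits leaving out each replicate were not run. Whether 1 library decides a call is therefore not analysed here. Genes at low levels, DIN11 in SQH first, are limited by counting.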
